A study of Bos grunniens with 6 samples.

Results

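miR-140 is a microRNA best known from cartilage, and in cultured cells of the yak hair follicle it was 6.29-fold higher in hair matrix cells than in dermal papilla cells. It was selected by its name, with its higher level in hair matrix cells already known, and it is 1 entry (bta-miR-140) of the 2853 small-RNA entries in the deposited table (757 with cattle miRNA names and 2096 predicted). The hair matrix cells are the epithelial cells that divide around the papilla and build the hair shaft, and the dermal papilla cells are mesenchymal and form the knot of tissue under the matrix. Each cell type had 3 small-RNA libraries from yak (Bos grunniens) skin. All 6 came from wild-type cells that were isolated and grown in DMEM/F12 with serum, IGF1 and EGF, the same medium for both cell types. The labels call the libraries biological replicates but name neither animals, ages, passages nor cultures, so p-values measure only the spread between these libraries.

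A microRNA guides the Argonaute protein to messenger RNAs that pair with bases 2 to 8 of its mature sequence, the seed, and lowers their output. In human and mouse, the miR-140 hairpin lies in an intron of WWP2, which encodes a ubiquitin ligase, and is transcribed in chondrocytes under the control of SOX9. Mice without it have short bones and lose joint cartilage early, and its targets there include the cartilage protease ADAMTS5. The yak gene table used here (RefSeq, assembly Bosgru_T2T1.0) holds WWP2 but has no symbol for the microRNA, so no genome position is given.

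The sequence listed for miR-140 is shown with its seed in capitals, because the seed decides which messages it pairs with and because the sequence tells which arm of the hairpin was counted. The only other entry that shares bases 2 to 7 is shown with it, likewise with the same bases 2 to 8 in capitals. All sequences are as deposited, 5′ to 3′, with T for U.
miR-140: tACCACAGggtagaaccacgga
miR-3596: aACCACACaacctactacctca
The first is the arm called miR-140-3p in human and mouse, 22 bases long, of which 12 are G or C. Much of the cartilage literature concerns the other arm, miR-140-5p, for which no entry carries the name here, whereas 60 other names are listed with both arms. The values below therefore describe the 3′ arm. No other entry of the table shared bases 2 to 8 of miR-140. miR-3596, named after its values were seen, parts from miR-140 within the capitals, and its whole sequence is the reverse complement of that of let-7b. It was at 1226 ± 80.2 RPM in hair matrix cells and 1389 ± 87.6 RPM in dermal papilla cells (SD, n = 3 each), where RPM are the reads of an entry scaled to a fixed library total. The entry closest to miR-140 in sequence had 5 mismatches over at least 18 aligned bases, so no near-identical entry could divide its reads.

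miR-140 was at 854, 831 and 786 RPM in the hair matrix libraries, against 119.98, 134 and 139 RPM in the dermal papilla libraries. Every hair matrix library was above every dermal papilla library, and the lowest of the hair matrix libraries was 5.66 times the highest of the dermal papilla libraries. The same order held in 42.3% of the 503 entries tested, and nothing is read from it here because miR-140 was chosen for this difference. The means were 823 ± 34.7 RPM in hair matrix cells and 131 ± 9.83 RPM in dermal papilla cells (SD, n = 3 each), a difference of 2.64 in log2(RPM + 1), hair matrix minus dermal papilla. No test was made of this difference, for the same reason. In bulk libraries, fewer cells that hold a miRNA and less of it per cell cannot be told apart.

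**Figure D1:**
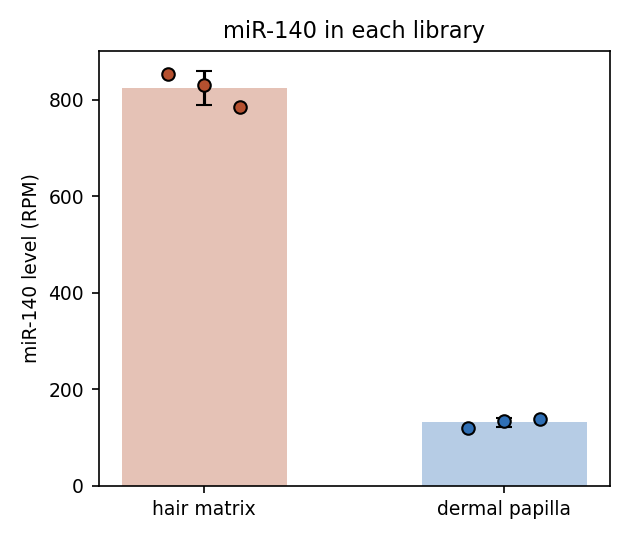
Level of miR-140 in RPM (linear axis from 0) in 3 hair matrix and 3 dermal papilla libraries; points are libraries, bars are means and error bars are the SD. The hair matrix libraries lie between 786 and 854 RPM, and the dermal papilla libraries between 119.98 and 139 RPM.

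These levels rest on many reads. miR-140 had 18860 to 21085 reads in a hair matrix library and 2868 to 3367 reads in a dermal papilla library, out of 23904796 to 24693655 reads per library. The exact (Clopper-Pearson) 95% interval ran from 842 to 865 RPM in hair matrix replicate 1 and from 116 to 124 RPM in dermal papilla replicate 1, and it covers counting error only. Counting alone gives a coefficient of variation (SD as a percentage of the mean) of 0.705% in hair matrix and 1.78% in dermal papilla libraries. The observed values were larger, at 4.22% between the hair matrix libraries and 7.50% between the dermal papilla libraries. Among tested entries of at least 100 RPM, 49 of 112 varied more than miR-140 between hair matrix libraries, and 28 of 125 did between dermal papilla libraries. miR-140 was therefore close to the middle in hair matrix cells, where the median was 3.93%, and more variable than most in dermal papilla cells, where it was 4.31%.

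Set against the rest of each library, miR-140 was the 51st most abundant of all entries in hair matrix cells and the 118th in dermal papilla cells, with ranks of 51 to 52 and 115 to 121 in single libraries. Each miRNA is read whole in 1 read, so RPM need no correction for length, although adapters join to some miRNA sequences more readily than to others. As a share of the reads on listed entries, miR-140 made up 0.113% ± 0.00369 in hair matrix cells and 0.0180% ± 0.00148 in dermal papilla cells (SD, n = 3 each). Without miR-21-5p, the most abundant entry of both cell types, the shares were 0.216% ± 0.00867 in hair matrix cells and 0.0275% ± 0.00192 in dermal papilla cells. Counts of entries that rose more in hair matrix cells are a description only, since miR-140 was chosen for this difference. They were 31 of the 503 tested entries, and 25 of the 413 tested entries with cattle names. Of the 94 tested entries with cattle names and at least 100 RPM in both cell types, 3 had a larger difference in this direction. These were miR-27a-3p, miR-184 and, named after its values were seen, miR-128, a miRNA of neurons, with log2 differences of 3.02, 7.49 and 3.73.

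The order of levels around miR-140 was close in both cell types. In hair matrix cells the next entries above were miR-98 (852 ± 12.2 RPM), miR-143 (898 ± 88.2 RPM) and miR-186 (943 ± 45.0 RPM). The next below were miR-423-5p (812 ± 17.8 RPM), miR-429 (748 ± 61.3 RPM) and miR-30e-5p (723 ± 15.3 RPM). The ranges of miR-98, miR-143, miR-423-5p and miR-429 overlapped that of miR-140, and those of miR-186 and miR-30e-5p did not. In dermal papilla cells the next above were miR-7857-5p (139.5 ± 2.78 RPM), miR-107 (139.9 ± 19.6 RPM) and miR-199c (142 ± 16.5 RPM), and the next below were miR-543 (130.3 ± 10.9 RPM), miR-382 (129 ± 0.0239 RPM) and miR-197 (121 ± 15.6 RPM). The ranges of all 6 overlapped that of miR-140, so their order there is within the spread between libraries. The reads of miR-30e-5p, miR-107 and miR-199c may be shared with the near-identical entries miR-30a-5p, miR-103 and miR-199a-3p, in that order.

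**Figure D2:**
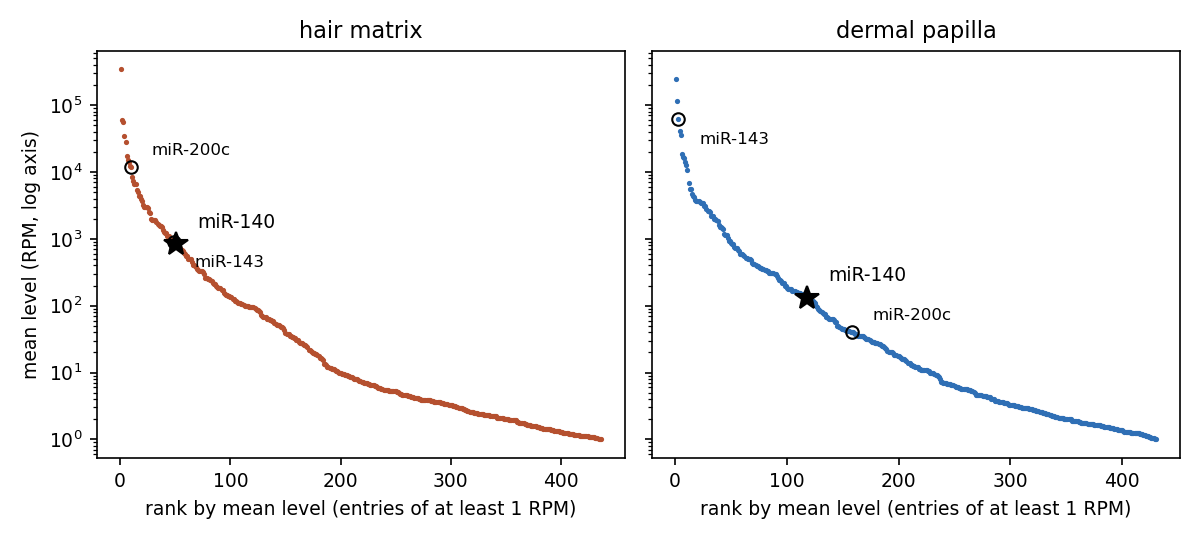
Mean level in RPM (log axis) against rank for entries of at least 1 RPM, hair matrix cells on the left and dermal papilla cells on the right; the star marks miR-140 and circles mark miR-143 and miR-200c. miR-140 stands at rank 51 in hair matrix cells, beside miR-143, and at rank 118 in dermal papilla cells, far below miR-143.

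The miRNAs listed as mesenchymal had the direction opposite to that of miR-140. miR-143, known from fibroblasts and smooth muscle, was at 898 ± 88.2 RPM in hair matrix cells and 61652 ± 1669 RPM in dermal papilla cells (SD, n = 3 each; log2 difference -6.10, limma adjusted p = 6.49e-10). For each miR-140 read there were 1.00 to 1.27 miR-143 reads in the hair matrix libraries and 457 to 501 in the dermal papilla libraries. miR-199a-3p and miR-199b, known from mesenchymal cells, had log2 differences of -6.19 and -6.20. All 7 tested entries of the mesenchyme list were lower in hair matrix cells (median log2 difference -6.10), where calls in that direction made up 25.2% of all entries tested. A call means an adjusted p under 0.05 and at least a 2-fold difference. All 11 tested epithelial entries were higher in hair matrix cells (median 7.98), where calls in that direction made up 19.9%. Of these 11, miR-141 and miR-375 were under 1 RPM in every dermal papilla library. They passed the filter on low values through the hair matrix libraries, so their direction follows from it. miR-96 was at 1.76, 0.710 and 1.36 RPM in the dermal papilla libraries, so the filter did not fix its direction. Among the 11 entries, miR-184 was at 59426 ± 1342 RPM in hair matrix cells and 331 ± 25.5 RPM in dermal papilla cells. miR-200c, a repressor of the ZEB transcription factors, was at 11848 ± 226 RPM in hair matrix cells and 40.2 ± 4.36 RPM in dermal papilla cells. Its reads may be shared with the near-identical entry miR-200b. miR-200a was likewise 292-fold higher in hair matrix cells.

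These lists also show how far markers of each cell type were read in the other. The mesenchyme list summed to 1206 to 1423 RPM in hair matrix libraries and 88573 to 91336 RPM in dermal papilla libraries, so that its hair matrix mean was 1.42% of the dermal papilla mean. The epithelial list summed to 84500 to 87216 RPM in hair matrix libraries and 397 to 472 RPM in dermal papilla libraries, so that its dermal papilla mean was 0.515% of the hair matrix mean. No entry of these lists was at 0 in all libraries of a cell type. The epithelial list had 12 names, of which 11 had an entry, and miR-203 had none. The dermal papilla level of miR-140 was 15.9% of its hair matrix level, and the same share was 0.557% for miR-184 and 0.340% for miR-200c. The share of miR-140 uses the values for which it was chosen. The part of hair matrix cells in its dermal papilla level was not tested. Markers of other cell types were summed in the same way. Entries of blood and immune cells, muscle and neural cells or melanocytes summed to 8.50 to 11.8, 40.9 to 42.6 and 34.3 to 37.9 RPM in hair matrix libraries. In dermal papilla libraries these sums were 19.3 to 21.5, 58.4 to 72.9 and 117 to 137 RPM. The sums do not describe each entry. Of the 2 tested muscle entries, 1 was called higher in hair matrix and 1 in dermal papilla cells (log2 differences 3.64 and -1.34). The former was under 1 RPM in every dermal papilla library, so its direction follows from the filter. Of the 2 tested neural or melanocyte entries, 1 was called higher in dermal papilla cells (-4.56) and 1 was not called (-0.26). The endothelial miR-126 entries summed to 2.57 to 4.01 RPM in hair matrix and 3.68 to 4.70 RPM in dermal papilla libraries. Of these entries 1 of 5 for muscle was at 0 in every hair matrix library, and 1 of 6 for blood and 1 of 3 for neural cells were at 0 in every dermal papilla library. The part of such cells in the miR-140 difference was not tested.

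Other miRNAs known from cartilage or chondrocytes did not share a direction. Of 15 names, 13 matched 17 entries, all of which were tested. In hair matrix cells 5 were higher, 6 were lower and 6 were not called (median log2 difference -0.03, against 0.01 over all 503 entries, of which 100 were higher and 127 lower). The 5 and 6 of 17 compare with 19.9% and 25.2% of all entries tested. miR-145 and both arms of miR-199a also belong to the mesenchyme list.

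miR-455 is often studied beside miR-140, since both are transcribed in chondrocytes with SOX9, miR-455 from an intron of the collagen gene COL27A1 in human and mouse. Both arms were listed here, and they are shown with their seeds in capitals to set them beside miR-140, with which they share no seed.
miR-455-3p: gCAGTCCAtgggcatatacact
miR-455-5p: tATGTGCCtttggactacatc
miR-455-3p was at 113, 102 and 121 RPM in the hair matrix libraries, against 49.0, 48.5 and 51.3 RPM in the dermal papilla libraries. miR-455-5p was at 10.7, 10.9 and 12.2 RPM in the hair matrix libraries, against 4.31, 2.59 and 4.50 RPM in the dermal papilla libraries. Both arms were higher in every hair matrix library than in any dermal papilla library, as were 42.3% of the 503 entries tested. Their ratios of means were 2.26-fold and 2.97-fold. The log2 difference was 1.16 ± 0.076 (SE) for miR-455-3p (limma adjusted p = 4.93e-06) and 1.38 ± 0.17 (SE) for miR-455-5p (limma adjusted p = 0.000173), and with a pseudocount of 10 RPM that of miR-455-5p fell under 2-fold, at 0.63. Thus each had the direction of miR-140 at a smaller size, and miR-140 had 6.47 to 8.15 times the level of miR-455-3p in hair matrix libraries and 2.45 to 2.77 times in dermal papilla libraries. This change of the ratio was not tested, since it uses the values for which miR-140 was chosen.

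The other 3 called higher in hair matrix cells were miR-146a, miR-34a and miR-29b. miR-146a, which dampens inflammatory signalling through TRAF6 and IRAK1, was at 665 ± 77.1 RPM in hair matrix cells and 108 ± 2.32 RPM in dermal papilla cells (log2 difference 2.60, limma adjusted p = 8.48e-08). miR-34a, induced by p53, was at 171 ± 6.49 RPM in hair matrix cells and 45.3 ± 2.27 RPM in dermal papilla cells. miR-29b, a repressor of collagens, was at 67.3 ± 2.42 RPM in hair matrix cells and 15.3 ± 0.391 RPM in dermal papilla cells. Their libraries did not overlap between the cell types, an order with hair matrix on top found in 42.3% of the 503 entries tested. The reads of miR-146a and miR-29b may be shared with the near-identical entries miR-146b and miR-29e.

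Lower in hair matrix cells were miR-145, both arms of miR-199a, miR-495, miR-193b and miR-23b-5p. miR-145, which is known to repress SOX9, was at 32.4 ± 4.32 RPM in hair matrix cells and 3152 ± 509 RPM in dermal papilla cells (log2 difference -6.56, limma adjusted p = 6.27e-09). miR-199a-3p, known to repress SMAD1 in mouse chondrogenic cells, was at 257 ± 23.96 RPM in hair matrix cells and 18880.3 ± 883 RPM in dermal papilla cells. miR-495, from an imprinted cluster, was at 0.163 ± 0.122 RPM in hair matrix cells and 45.1 ± 4.25 RPM in dermal papilla cells, so it passed the filter on low values through the dermal papilla libraries and had to differ. miR-193b was 2.66-fold lower in hair matrix cells, and after quantile normalization it was not called, at a log2 difference of -0.94. miR-23b-5p varied between libraries (27.01, 4.33 and 4.46 RPM in hair matrix, against 30.4, 26.2 and 50.5 RPM in dermal papilla). Its call (limma adjusted p = 0.0272) was lost through the adjusted p (0.0581 to 0.0984), at over 2-fold in each case, after quantile normalization (log2 difference -1.58), in edgeR (-1.56) and in DESeq2 (-1.64). It was also lost without hair matrix replicate 2 or 3 (-1.51 and -1.53) and without dermal papilla replicate 1 or 3 (-2.00 and -1.64). Its reads may also be divided with the near-identical entry miR-10174-5p.

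Of the 6 entries not called, 4 differed by less than 2-fold with a limma adjusted p below 0.05. These were miR-101, known to repress EZH2, with a log2 difference of 0.18, both entries of miR-24 (0.69 for miR-24 and 0.43 for miR-24-3p) and miR-320a (-0.85). miR-27b, reported to repress the collagenase MMP13 in human chondrocytes, was at 34797 ± 1823 RPM in hair matrix cells and 35522 ± 902 RPM in dermal papilla cells, a difference within the spread between libraries (log2 difference -0.03, limma adjusted p = 0.535). It turned to 0.24 after median centring (limma adjusted p = 0.0027) and 0.25 after quantile normalization (limma adjusted p = 5.94e-09), under 2-fold in both. Whether miR-27b differed at an adjusted p under 0.05 thus depended on the scaling. miR-23b-3p ran from 428 to 938 RPM in hair matrix libraries and from 491 to 1116 RPM in dermal papilla libraries, and the cell types overlapped. Its reads may be divided with the near-identical entries miR-10174-3p and miR-23a. miR-10174-3p was at 2518, 3117 and 3250 RPM in hair matrix libraries, against 3843, 3088 and 3566 RPM in dermal papilla libraries. The part of such a division in the overlap was not tested.

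**Figure D3:**
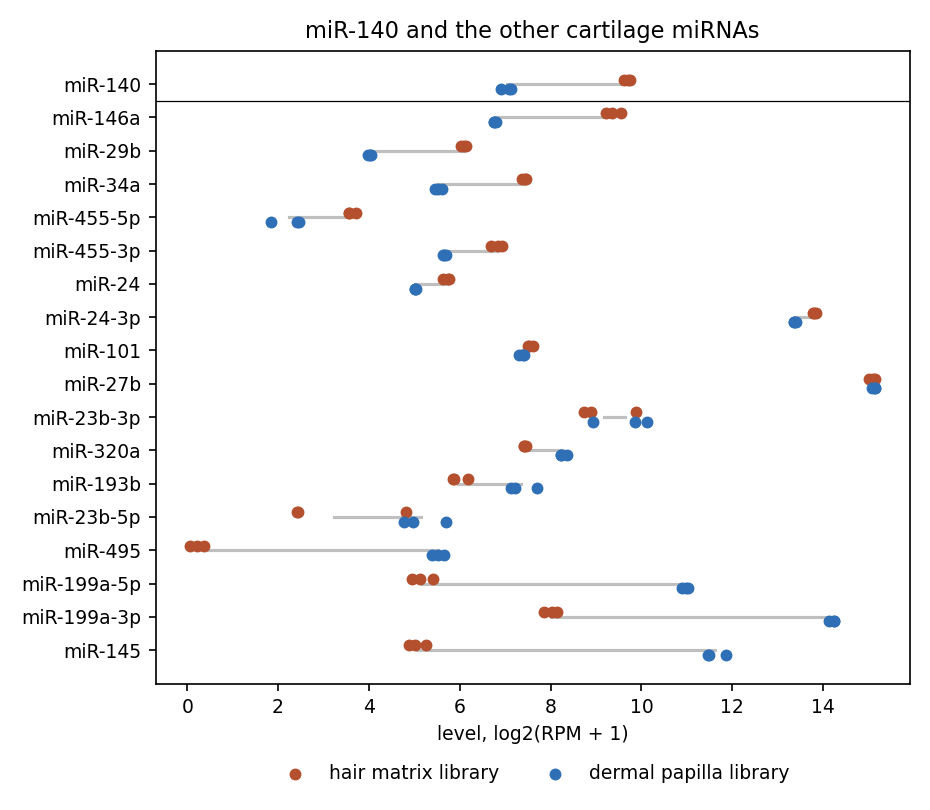
Level in log2(RPM + 1) of miR-140 (top) and of 17 other entries known from cartilage, ordered by their difference; red points are the 3 hair matrix libraries, blue points the 3 dermal papilla libraries, and grey lines join the means. miR-146a, miR-29b, miR-34a and both arms of miR-455 lie to the right in hair matrix cells as miR-140 does, and miR-145, miR-199a and miR-495 lie far to the left.

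The miRNAs whose pattern over the 6 libraries was most like that of miR-140 were found by the distance between log2(RPM + 1) values, each centred on the mean of its own miRNA. Among tested entries with cattle names the 5 nearest were miR-10225b, miR-146a, miR-31, miR-2284ab and miR-27a-3p, with distances of 0.21, 0.24, 0.29, 0.45 and 0.51. Their sequences are shown with the seeds in capitals, to set them beside that of miR-140.
miR-10225b: tCGAGCCTgacagatcacaca
miR-146a: tGAGAACTgaattccataggttgt
miR-31: aGGCAAGAtgctggcatagct
miR-2284ab: tAAAAGTTtggttgggttttt
miR-27a-3p: tTCACAGTggctaagttccg
None of the 5 shares its seed with miR-140 or with another of the 5. miR-31, which is studied for its part in hair growth, was at 106, 104 and 107 RPM in hair matrix libraries, against 16.4, 14.3 and 18.6 RPM in dermal papilla libraries. It had a ratio of means of 6.44, and miR-146a of 6.13, close to the 6.29 of miR-140, which follows from the choice by likeness. miR-27a-3p, at 28034 ± 1266 RPM in hair matrix cells and 3448 ± 118 RPM in dermal papilla cells, had 34.0 times the level of miR-140 in hair matrix cells. Near-identical entries exist for 4 of the 5, so reads could be divided between them: miR-146b for miR-146a, miR-27b for miR-27a-3p, and 2 entries each for miR-2284ab and miR-10225b. That of miR-10225b with a cattle name, miR-10225a, was at 70.6 to 76.7 RPM in hair matrix libraries and at most 0.206 RPM in dermal papilla libraries. miR-2284ab, of a family found in ruminants, was at 26.3 ± 0.334 RPM in hair matrix cells and 3.29 ± 0.586 RPM in dermal papilla cells. miR-10225b averaged 5.46 RPM in hair matrix cells and reached at most 0.0418 RPM in a dermal papilla library, under the floor of 3 reads (0.124 to 0.125 RPM there), so its likeness follows from the pseudocount. With pseudocounts of 0.5 and 10 RPM, 3 and 2 of the 5 stayed among the nearest, and miR-146a and miR-31 did so with both.

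**Figure D4:**
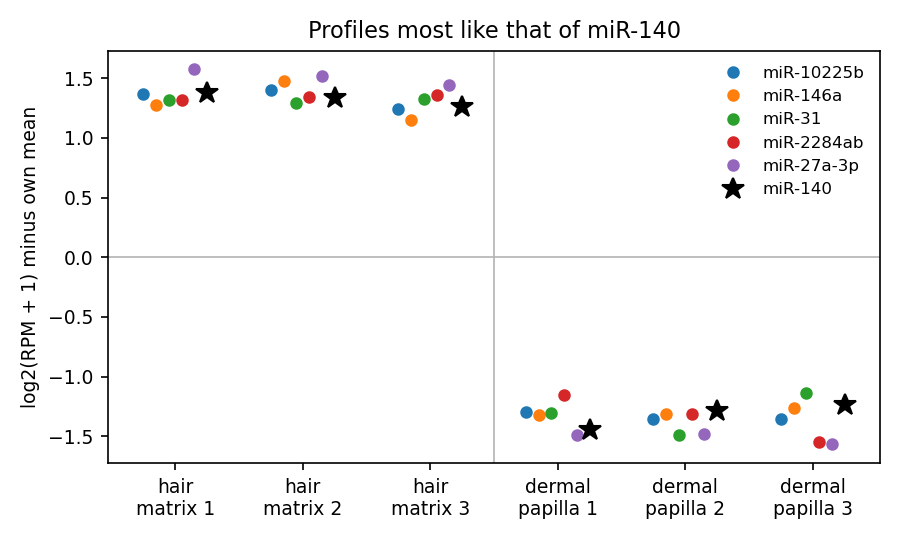
log2(RPM + 1) of miR-140 (stars) and of the 5 miRNAs most like it (circles) in each library, after subtracting each miRNA's own mean over the 6 libraries. All 6 miRNAs lie above 0 in the 3 hair matrix libraries and below 0 in the 3 dermal papilla libraries, as the choice by likeness requires.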

How the data were processed

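Small-RNA libraries were made with a TruSeq kit for small RNA from total RNA, per the labels' protocols. Trimmomatic, DESeq 1.20.0 and HISAT2 2.2.1.0 were used in roles not stated, per the submitters' processing notes. Not given in the sources used here are the genome build, the miRNA reference, the strand setting and how reads matching several entries were counted. The deposited values, called TPM by the authors, are RPM, because 100% of values in each library are whole multiples of 1 step within 0.001 read. The steps gave the whole reads and the totals of each library, of which 71.7% to 73.5% fell on listed entries. The miRNA, the lists and the tests were chosen with earlier results of these data known.

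The test took the 503 entries (413 with cattle names) that reached 1 RPM in 3 or more libraries. In R 4.3.3, limma 3.58.1 compared the cell types on log2(RPM + 1) with no other term, with variances moderated along a mean trend, and p-values were adjusted over all 503 by Benjamini-Hochberg. The design had assumed TPM, and the test was kept since RPM are normalized values too. Differences are hair matrix minus dermal papilla, and folds are ratios of mean RPM. Entries were near-identical if 18 or more bases aligned with no more than 1 mismatch. Named miRNAs were miR-140, entries sharing its seed, the 5 nearest in pattern, the 3 next above and below it in each cell type, every tested cartilage entry and the 3 most abundant mesenchyme and epithelial entries. miR-128 and miR-3596 were added after their values were seen.

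Replicates differed beyond counting noise (chi-square per degree of freedom 26.6 to 76.8). On simulated data for this comparison with 503 entries, limma called 22% of the entries given a 2-fold change, 92% at 4-fold and 0% of 303 unchanged entries. A call needs an estimate of at least 2-fold, so a 2-fold change lies on the cutoff and an unchanged entry can hardly be called. The limma adjusted p was under 0.05 in the right direction for 96% of entries at 2-fold and 100% at 4-fold. All simulated entries had the same dispersion, unlike real entries, so these rates do not give the missed or false calls in the data. Alternatives were other pseudocounts, filters and scalings, a replicate block, each library left out, and edgeR 4.0.16 and DESeq2 1.42.0 on whole reads.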

Additional observations from a re-analysis of the deposited data

How the results depend on the processing

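The miR-140 difference was positive, between 2.57 and 2.92, in the 14 alternatives that could move it. The other 4 (both filters, the replicate block and the sum of near-identical entries, of which there were 0) leave it at 2.64 by construction. It moved by more than 1 SD between libraries after median centring (2.92), after quantile normalization (2.90) and without the 5 most abundant entries (2.74), which shifted the median over all entries to 0.29, 0.23 and 0.10. With 1 library left out it was 2.58 to 2.69.

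Calls over all entries, 100 higher in hair matrix and 127 higher in dermal papilla cells, became 137 and 109 after median centring, 141 and 143 with edgeR and 135 and 151 with DESeq2. A pseudocount of 10 gave 40 and 77, and a filter of 10 RPM gave 47 and 80 of 244 tested. With 1 library left out there were 60 to 104 higher in hair matrix and 65 to 128 higher in dermal papilla cells. The low ends came from fewer entries passing the filter on low values. With the tested entries held fixed, an alternative chosen after seeing the data, the counts were 100 to 104 and 125 to 128. The other cartilage entries gave 5 higher in hair matrix cells in each run with 1 library left out, and 4 to 6 higher in dermal papilla cells. Of 37 named miRNAs 5 changed their call under some alternative. No called miRNA changed sign, but 4 that were not called did (miR-27b, miR-107, miR-197 and miR-423-5p), each after median centring, at 0.24, 0.13, 0.05 and 0.10. The 5 with a changed call include miR-186, which was called at 1.19 after median centring, and miR-10225b, which was not called with a pseudocount of 10, at 0.63.

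Same-numbered libraries did not deviate together (correlations 0.14, 0.080 and -0.27 across entries), so the numbers were not taken as pairs. A replicate block gave 101 and 127 calls. In this balanced design it cannot change a mean difference.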
